A study of Mus musculus with 4 samples.

Results

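Axoneme and dynein arm genes were examined in sections of mouse testis from wild-type mice and from mice lacking H3t, a histone H3 variant of the testis. The genes were taken by name from the count table: protein-coding genes of the Cfap, Dnah, Dnai, Dnaaf, Drc, Rsph and Tekt families whose symbol goes on with a number, and Spag6, Spag16 and Spag17 with symbols that start like them. The rule found 69 genes of 28595 in the table, and no Dnai gene was among them. Of the 69 genes, 68 had a count in at least 1 library, and Rsph4a had none.

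Each library came from a 10 µm testis section by photo-isolation chemistry, which uses ultraviolet light to unblock DNA ends so that only RNA in the irradiated area enters the library. The 4 groups of 3 libraries were wild-type entire sections, H3t-knockout entire sections, wild-type sections irradiated only at Leydig cells (interstitial cells that make testosterone), and H3t-knockout sections irradiated only at Leydig cells. The word young stands in the titles of the wild-type groups. The labels give neither an age for the knockouts nor a strain for any group. The series speaks of H3t deletion mice and names no promoter, Cre driver or other agent. Whether libraries within a group are from different animals is not stated in the labels, and the spread behind each p-value may therefore be technical. Each group was deposited as 1 sample with 3 replicate columns, and the labels give no preparation or sequencing batch.

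The axoneme is the microtubule core of the sperm tail and of motile cilia, with outer doublet microtubules set around a central pair. Outer and inner dynein arms on the doublets slide neighbouring doublets against each other, and radial spokes, the central pair and the nexin-dynein regulatory complex control that sliding. In the testis these proteins are made by spermatocytes and above all by spermatids as the flagellum grows. RFX transcription factors, which bind a palindromic DNA motif called the X-box, are known activators of axoneme genes in both spermatids and multiciliated cells.

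Promoter sequence was read for 59 of the 69 genes from RefSeq (GRCm38.p6), as 66 promoters of 300 bases each, from 250 bases before to 50 bases after the start site. The X-box palindrome was searched as the arm GTNNCC, then any 2 bases, then its complement GGNNAC, which reads the same on both strands. It was found in 7 of 66 promoters (10.6%), against 618 of 32851 promoters of all genes (1.88%). The 7 genes were Cfap126, Cfap206, Cfap77, Dnaaf5, Rsph9, Spag6l and Tekt4. The next 4 sequences of 80 bases are shown because they carry the palindrome, in capitals, in genes whose counts are given further on. They are written 5′ to 3′ on the gene's strand and lie at chr4:34730207-34730286 (minus strand), chr2:29055237-29055316 (minus strand), chr1:171122930-171123009 (plus strand) and chr17:25471397-25471476 (plus strand).
Cfap206: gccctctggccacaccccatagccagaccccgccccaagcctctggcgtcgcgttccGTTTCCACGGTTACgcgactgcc
Cfap77: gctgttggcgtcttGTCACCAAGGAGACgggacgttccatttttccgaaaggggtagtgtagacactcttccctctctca
Cfap126: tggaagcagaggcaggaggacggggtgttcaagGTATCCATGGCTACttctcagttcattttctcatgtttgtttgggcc
Tekt4: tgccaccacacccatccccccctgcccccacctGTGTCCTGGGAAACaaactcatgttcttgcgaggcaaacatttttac
The palindromes begin 23, 236, 82 and 160 bases before the RefSeq start site. For Cfap126 and Tekt4 that start site lies inside the longer GENCODE gene model.

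A single X-box arm, GTTGCC or its complement GGCAAC, was found in 25 of 66 promoters (37.9%, 23 genes), against 12.5% of all promoters. It can lie within a palindrome, and Dnaaf5, Spag6l and Tekt4 held both. Of the next 5 windows of 60 bases, 4 belong to genes that fell and 1, that of Cfap20, to a gene whose call was lost in most alternatives. The arm is in capitals, and the windows lie at chr4:155409047-155409106 (plus strand), chr4:126325752-126325811 (minus strand), chr5:30281333-30281392 (plus strand), chr19:47937626-47937685 (plus strand) and chr8:95434931-95434990 (minus strand).
Cfap74: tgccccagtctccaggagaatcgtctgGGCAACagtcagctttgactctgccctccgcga
Tekt2: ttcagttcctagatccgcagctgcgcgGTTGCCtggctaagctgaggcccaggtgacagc
Drc1: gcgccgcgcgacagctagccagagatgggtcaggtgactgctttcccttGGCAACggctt
Cfap58: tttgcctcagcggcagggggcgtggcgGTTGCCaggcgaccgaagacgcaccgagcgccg
Cfap20: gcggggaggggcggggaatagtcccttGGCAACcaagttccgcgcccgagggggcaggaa
The cyclic AMP response element TGACGTCA, bound by CREM, a regulator of spermatid genes, was found in 2 of 66 promoters (3.03%, Dnah6 and Spag6l) and in 1.79% of all promoters. These matches describe letters in a window and show no binding.

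Entire-section libraries held 247539 to 566527 counts and Leydig-targeted libraries 5947 to 54882, so 1 count is worth 168 CPM (counts scaled to library size) in wild-type Leydig-targeted library 3 and 1.77 CPM in wild-type section library 1. The H3t gene (H3f4, annotated as an unprocessed pseudogene) had 1 count in wild-type section library 1 and 0 in the other 11 libraries, so it checked no label. Leydig marker genes, 11 in the table, held 1.31% to 2.84% of counts in wild-type Leydig-targeted libraries and 0.323% to 0.651% in wild-type sections. The same wild-type Leydig-targeted libraries held 1.13% to 2.57% of counts in 16 elongating spermatid markers, so they were not free of germ cell RNA. Wild-type Leydig-targeted library 3 stood apart by depth, by a TMM scaling factor of 2.28 and by a mitochondrial share of 8.76%.

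The 69 genes together lost nearly all of their counts in knockout sections. They held 0.960%, 1.02% and 0.977% of counts in the wild-type section libraries and 0.0275%, 0.0311% and 0.0420% in the knockout section libraries. The groups were far apart, with means of 0.987% ± 0.0326 (SD, n = 3) and 0.0335% ± 0.00751 (SD, n = 3). In Leydig-targeted libraries the shares were 0.691%, 0.544% and 0.471% in wild type and 0.0585%, 0.0328% and 0.0132% in knockouts, which did not overlap either. Behind these shares stand 379, 146 and 28 wild-type counts, and only 31, 13 and 2 knockout counts.

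**Figure D1:**
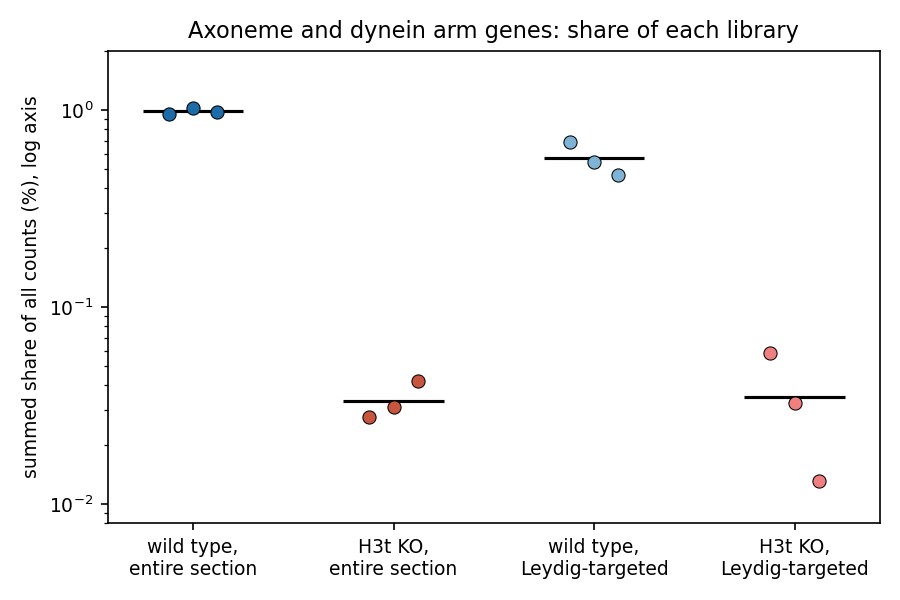
Summed share of the 69 axoneme and dynein arm genes in each library, in percent of all counts on a log axis; each point is 1 library and each bar the mean of 3. The knockout section libraries sit between 0.0275% and 0.0420%, below the wild-type section libraries at 0.960% to 1.02% and the wild-type Leydig-targeted libraries at 0.471% to 0.691%.

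Germ cell markers were lower in the same knockout libraries, so the values of both are given side by side. Where 39.1% of all tested genes fell in knockout sections, all 10 spermatocyte, 10 round spermatid and 12 elongating spermatid markers tested fell. Their summed shares ran from 0.698% to 0.819%, 0.891% to 1.55% and 2.48% to 4.63% in wild-type sections, and from 0.0138% to 0.0261%, 0.00127% to 0.0174% and 0.0171% to 0.0827% in knockout sections. Spermatogonia markers held 0.0878% ± 0.0102 (SD, n = 3) in wild-type and 0.0901% ± 0.00439 (SD, n = 3) in knockout sections. Their sum hides moves in both directions. Of the 7 tested, 3 fell (Ddx4, Dmrtb1 and Id4), 2 rose (Kit and Uchl1), and Dazl and Etv5 were not called. Of all tested genes 39.1% fell and 22.6% rose. In these bulk libraries fewer cells of a type and less RNA per cell cannot be told apart.

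Knockout sections had lower CPM than wild-type sections for 63 of the 69 genes and higher CPM for 5, Dnah9, Dnah11, Cfap410, Cfap47 and Rsph3b, of which all but Dnah9 rest on 10 counts or fewer in each group. In a fit with no filter on low counts, 56 of 68 genes fell, Dnah9 rose and 11 were not called (edgeR quasi-likelihood test, adjusted p under 0.05). Across all 26389 genes of that fit 17.6% fell and 9.16% rose. The CPM of the 3 libraries did not overlap for 56 of the 68 genes on the lower side and for 2 on the higher side, Dnah9 and Dnah11, against 21.0% and 19.0% of all genes with a count. With counts below 3 in a group raised to 3, the median log2 ratio of summed CPM was -4.00 over the 68 genes and 0.17 over all 25539 genes with a count. The filter kept 30 of the genes, mostly those high in wild-type sections, and all 30 fell, where 39.1% of 5182 genes tested fell and 22.6% rose. Since those 30 passed through the group in which they are high, that count is no support for the other, and the same holds for the counts of tested genes given for the other comparisons.

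**Figure D2:**
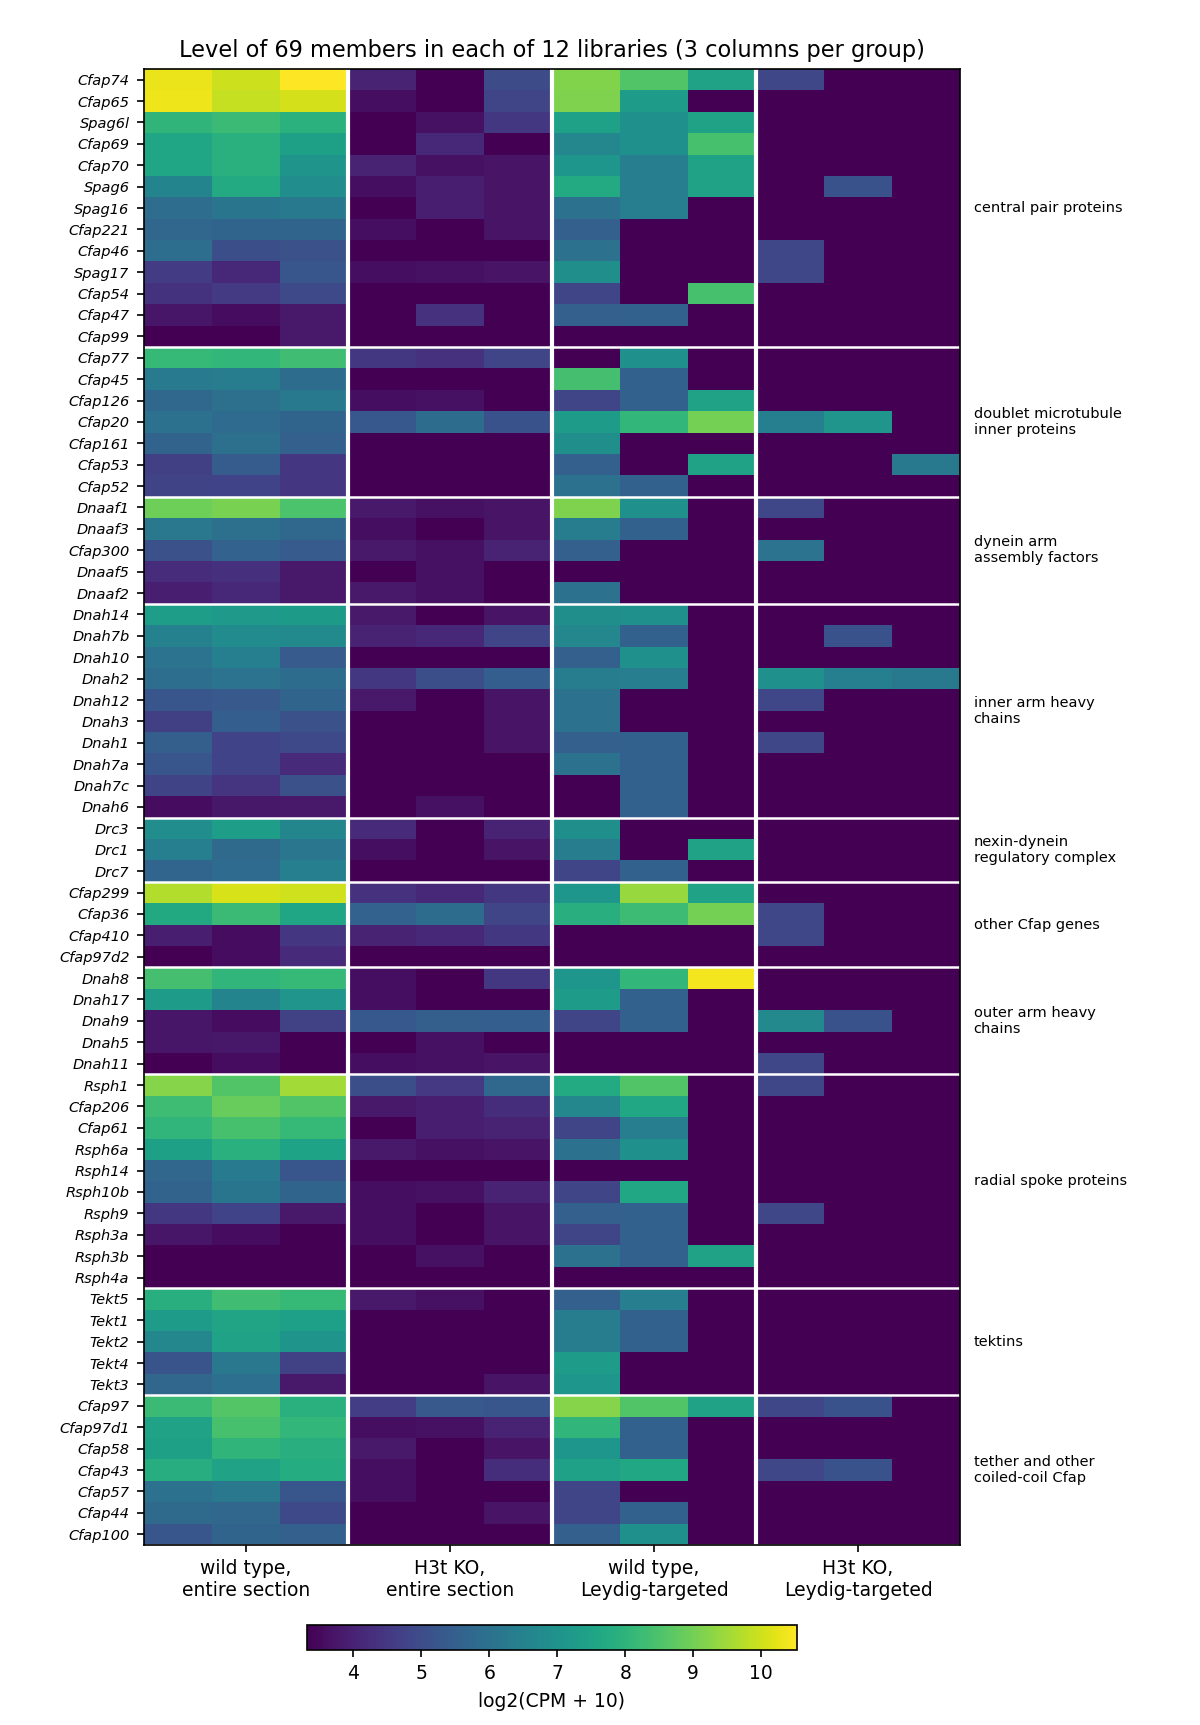
Level of each of the 69 genes (rows, grouped by role) in each of the 12 libraries (columns 1 to 3 of each group), as log2(CPM + 10), so that the darkest colour is no count. The knockout columns are dark in nearly every row, while Dnah9 is brighter in knockout than in wild-type sections and Cfap20 and Dnah2 are visible in both.

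Dynein heavy chains are the motors of the axoneme, and the outer arm chains split in these sections. Dnah8 and Dnah17, the outer arm heavy chains of the sperm tail, fell. Dnah8 (ENSMUSG00000033826, chromosome 17, 30624354 to 30877365, plus strand) had 327, 258 and 275 CPM in wild-type and 2.10, 0 and 12.4 CPM in knockout sections. It fell by 6.44 ± 0.65 on the log2 scale (SE, adjusted p = 3.94e-22), and without knockout section library 3 Dnah8 fell by 7.88. Dnah17 (chromosome 11, 118021723 to 118130634, minus strand) had 145, 84.2 and 125 CPM against 1 count in the 3 knockout libraries. That is a ratio of 140 (24.7 to 5554, exact 95% counting interval; adjusted p = 3.80e-19), and the 1 count was in knockout section library 1. Wild-type and knockout libraries did not overlap for either gene. Dnah17 overlaps Pgs1 on the other strand at its 3′ end and Dnah8 overlaps 1700097N02Rik near its start. No source used here gives the strand setting of the counting, so such partners cannot be separated.

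Dnah9, an outer arm heavy chain of motile cilia in the airway and other epithelia, was the 1 gene of the 69 that rose. Dnah9 (chromosome 11, 65831282 to 66168551, minus strand) had 2, 1 and 4 counts in wild-type section libraries (3.53, 1.91 and 16.2 CPM) and 14, 14 and 11 counts in knockout section libraries (29.4, 35.7 and 34.2 CPM). The groups did not overlap, and the ratio of summed CPM was 6.26 (2.77 to 16.5, exact 95% counting interval). The log2 fold change of Dnah9 was 2.24 ± 0.67 (SE) with adjusted p = 0.00520 in the edgeR fit with no filter and 1.88 with adjusted p = 0.0385 by DESeq2. The Dnah9 call was lost without wild-type section library 1 (1.84, adjusted p = 0.0763) or library 2 (1.81, adjusted p = 0.0626). In Leydig-targeted libraries wild-type counts of Dnah9 were 1, 1 and 0, and knockout counts of 5, 1 and 0 overlapped with them. Dnah9 was the outer arm heavy chain with the most counts in knockout sections, 39 against 5 for Dnah8, 3 for Dnah11 and 1 each for Dnah5 and Dnah17.

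Values of other cell types moved beside Dnah9 and their part in its result was not tested. All 11 Leydig markers tested rose in knockout sections (0.323% to 0.651% of counts in wild type, 3.61% to 4.31% in knockouts). Of 16 Sertoli markers tested 14 rose (0.332% to 0.642%, and 1.60% to 1.74%), and all 8 macrophage markers tested rose (0.0243% to 0.0545%, and 0.150% to 0.375%). Of all tested genes 22.6% rose. Multiciliated epithelium, which uses Dnah9 in its cilia, was looked up with 14 marker names, of which Mcidas, Aqp4 and Sec14l3 were not matched. In the knockout sections Foxj1, its master regulator, had 2 counts, Ccno 3, Sntn 2, Pifo 2, Deup1 1 and Fam183b 1, and Gmnc, Cdc20b, Tmem212 and Dynlrb2 had 0. Foxj1 had 44 counts in wild-type sections, and the whole multiciliated list held 0.0410% to 0.0603% of counts there and 0.000631% to 0.00124% in knockout sections. All 4 tested genes of the list (Deup1, Dynlrb2, Fam183b and Pifo) fell, as did the spermatocyte and spermatid markers. The list therefore cannot single out epithelium in these sections, and a part of epithelium in the Dnah9 result was not tested.

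The other motile-cilium paralogs were near the floor in both genotypes and were looked up after the values of Dnah9 were seen. Dnah5, the partner of Dnah9 in ciliary outer arms, had 4 counts in the 3 wild-type and 1 in the 3 knockout section libraries. Dnah11 had 1 and 3 counts. Their differences were not called (adjusted p = 0.451 for Dnah5 and 0.558 for Dnah11, edgeR with no filter). The radial spoke heads show the pair Rsph6a, of the sperm tail, and Rsph4a, of motile cilia. Rsph6a had 161, 230 and 170 CPM in wild-type and 4.20, 2.55 and 3.11 CPM in knockout sections and fell by 6.18 ± 0.63 (SE, adjusted p = 1.03e-21). Rsph4a had no count in 1336718 wild-type and 1189699 knockout section counts, which allows up to 2.24 and 2.52 CPM.

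**Figure D3:**
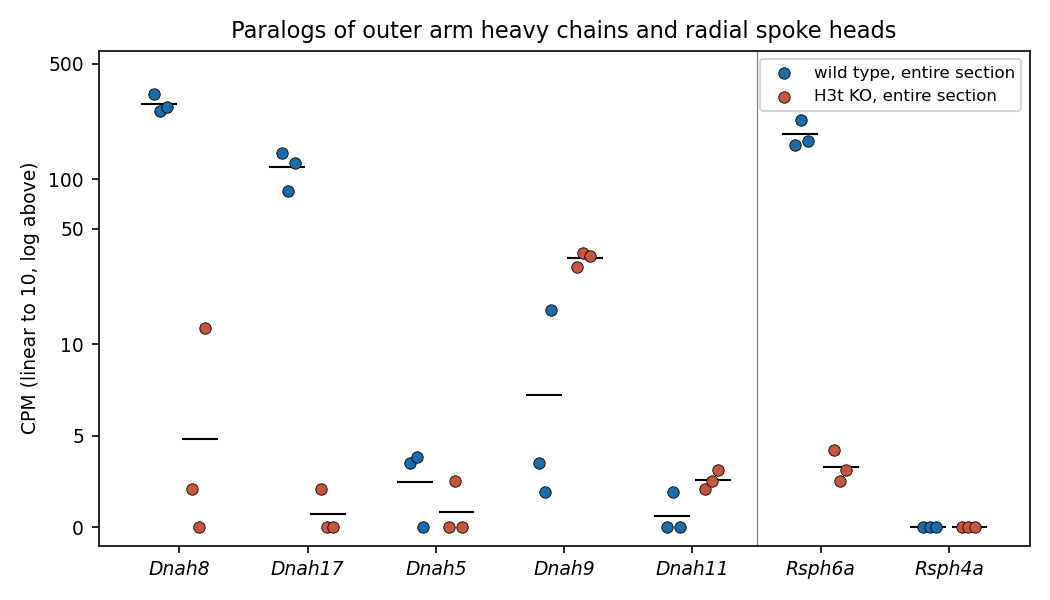
CPM of outer arm heavy chains and radial spoke head paralogs in each entire-section library, on an axis that is linear to 10 and logarithmic above; points are libraries and bars the mean of 3. Dnah8, Dnah17 and Rsph6a drop from over 80 CPM to under 15 CPM in knockouts, Dnah9 goes from 1.91 to 16.2 CPM up to 29.4 to 35.7 CPM, and Dnah5, Dnah11 and Rsph4a stay under 5 CPM.

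In the fit with no filter 9 of 10 inner arm heavy chains fell, against 17.6% of all genes. The exception, Dnah6, had 4 counts in wild-type and 1 in knockout sections. Dnah14 (chromosome 1, 181576559 to 181815774, plus strand), a dynein heavy chain, had 150, 136 and 141 CPM in wild-type and 4.20, 0 and 3.11 CPM in knockout sections. The ratio was 56.7 (19.1 to 277, exact 95% counting interval; adjusted p = 3.10e-19) on 3 knockout counts. Dnah14 overlaps Lbr on the other strand at its 3′ end. Dnah7b had 79.4, 101 and 97.0 CPM in wild-type and 6.31, 7.65 and 18.6 CPM in knockout sections and fell by 3.69 ± 0.55 (SE, adjusted p = 1.23e-10). It is a near-identical copy of Dnah7a and Dnah7c, so how reads were split among them is uncertain. Dnah10, which had 32.3 to 76.5 CPM in wild-type sections, had no count in knockout sections.

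Dnah2, an inner arm heavy chain, was named after its values were seen because it moved least among the tested heavy chains. Dnah2 (chromosome 11, 69420809 to 69549110, minus strand) had 51.2, 57.4 and 48.5 CPM in wild-type and 12.6, 22.9 and 34.2 CPM in knockout sections. Those groups did not overlap, and Dnah2 fell by 1.80 ± 0.52 (SE, adjusted p = 0.00130). In Leydig-targeted libraries it had 72.9, 74.5 and 0 CPM in wild type and 113, 75.6 and 65.8 CPM in knockouts, where its difference was not called (0.22 ± 0.93, adjusted p = 0.890). Within knockouts all 3 Leydig-targeted libraries lay above all 3 sections, from 10 counts in the former. That regional difference was not called by edgeR and was called by DESeq2 (log2 1.93, adjusted p = 0.0468) and in a fit of the knockout libraries alone (1.97, adjusted p = 0.0239).

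Dynein arms are assembled in the cytoplasm by dedicated factors before they enter the tail. In the fit with no filter 4 of 5 of these factors fell, against 17.6% of all genes. Dnaaf1 (chromosome 8, 119575235 to 119598454, plus strand), needed for outer and inner arm assembly, had 480, 524 and 351 CPM in wild-type and 4.20, 2.55 and 3.11 CPM in knockout sections. It fell by 7.44 ± 0.68 (SE, adjusted p = 4.50e-26). Cfap300, an assembly factor that was below the filter, had 24.7, 38.3 and 32.3 CPM in wild-type and 4.20, 2.55 and 6.22 CPM in knockout sections and fell by 3.03 ± 0.70 (SE, adjusted p = 1.36e-04, no filter). Dnaaf2, an early assembly factor, had 5.30, 7.65 and 4.04 CPM in wild-type and 4.20, 2.55 and 0 CPM in knockout sections. Those libraries overlapped and Dnaaf2 was not called (adjusted p = 0.363, no filter).

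The nexin-dynein regulatory complex links neighbouring doublets. All 3 of its genes here fell in the fit with no filter, against 17.6% of all genes. Drc3 (chromosome 11, 60353329 to 60394341, plus strand) had 106, 155 and 88.9 CPM in wild-type and 8.41, 0 and 6.22 CPM in knockout sections and fell by 5.01 ± 0.60 (SE, adjusted p = 6.07e-16). Without knockout section library 1, Drc3 fell by 5.68. Drc1, a core subunit, had 75.9, 45.9 and 60.6 CPM in wild-type sections and 2 counts in knockout sections. Its ratio was 36.5 (9.78 to 306, exact 95% counting interval; adjusted p = 2.51e-11). Drc7, below the filter, had 40.6 to 76.8 CPM in wild-type and no count in knockout sections.

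Radial spokes reach from the doublets to the central pair. With no filter 7 of 9 spoke genes with a count fell, against 17.6% of all genes. Rsph1 (chromosome 17, 31255019 to 31277383, minus strand), a spoke head protein, had 579, 369 and 731 CPM in wild-type and 23.1, 12.7 and 43.5 CPM in knockout sections. It fell by 4.96 ± 0.54 (SE, adjusted p = 9.03e-19) and kept 30 counts in knockouts, more than the other spoke genes. Cfap206 (chromosome 4, 34688559 to 34730206, minus strand), a spoke-associated protein whose X-box sequence is shown above, had 300, 450 and 368 CPM in wild-type and 4.20, 5.10 and 9.32 CPM in knockout sections. It fell by 6.45 ± 0.63 (SE, adjusted p = 2.30e-23). The spoke stalk paralogs Rsph3a and Rsph3b had at most 3 counts in either section group, were not called, and are near-identical copies whose reads may have been split.

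Central pair proteins held 32.9% of the genes' counts in wild-type sections. In the fit with no filter 11 of 13 of them fell, against 17.6% of all genes. Cfap74 (chromosome 4, 155409190 to 155466823, plus strand), a central pair projection protein, had 1269, 987 and 1462 CPM in wild-type and 6.31, 0 and 21.8 CPM in knockout sections. It fell by 7.63 ± 0.66 (SE, adjusted p = 1.12e-28). Cfap65 (chromosome 1, 74902071 to 74935599, minus strand), whose loss causes malformed sperm tails, had 1296, 943 and 1058 CPM in wild-type and 2.10, 0 and 18.6 CPM in knockout sections. It fell by 7.92 ± 0.68 (SE, adjusted p = 3.84e-29). Knockout section library 3 carried most of what was left of both, and without it Cfap74 fell by 8.83 and Cfap65 fell by 9.81. The 2 genes not called, Cfap47 and Cfap99, had 4 or fewer counts in each section group.

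Proteins inside the doublet microtubules stabilise the tubule wall. With no filter 6 of 7 such Cfap genes and all 5 tektins fell, against 17.6% of all genes. Cfap77 (chromosome 2, 28926949 to 29055066, minus strand), whose X-box sequence is shown above, had 275, 262 and 307 CPM in wild-type and 12.6, 10.2 and 18.6 CPM in knockout sections. It fell by 4.90 ± 0.55 (SE, adjusted p = 2.97e-18). Cfap45 had 67.1, 70.8 and 48.5 CPM in wild-type sections and no count in knockout sections, so it was at least 25.8-fold lower, taking 3 counts in the group as the floor. Tektins form filaments inside the doublets, and they were among the emptiest genes in knockouts, with 4 counts over the 5 genes against 838 in wild-type sections. Tekt1 (chromosome 11, 72344722 to 72362442, minus strand) had 148, 174 and 158 CPM in wild-type and no count in knockout sections and was at least 63.5-fold lower. Tekt5 had 217, 308 and 271 CPM in wild-type sections and 3 counts in knockout sections, a ratio of 104 (35.3 to 507, exact 95% counting interval; adjusted p = 3.13e-24). Tekt2, whose promoter is shown above, had 169 counts in wild-type and 0 in knockout sections and was at least 50.1-fold lower. Tekt4, with an X-box palindrome, had 15, 33 and 4 counts in wild-type sections and none in knockouts and was at least 15.4-fold lower (9.26-fold without wild-type section library 2). Cfap126, a doublet inner protein with the other palindrome shown, went from 25, 28 and 16 counts in wild-type sections to 1, 1 and 0 in knockouts, a ratio of 30.7 (8.18 to 259, exact 95% counting interval; adjusted p = 5.46e-09, no filter).

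Cfap20, the protein that closes the junction between the tubules of a doublet, was named after its values were seen because it had the smallest change of the 30 tested genes. Cfap20 (chromosome 8, 95420249 to 95434869, minus strand) had 54.7, 47.8 and 40.4 CPM in wild-type and 29.4, 48.4 and 24.9 CPM in knockout sections. These libraries overlapped, and the ratio of summed CPM was 1.43 (0.956 to 2.17, exact 95% counting interval). Its call at adjusted p = 0.0443 (log2 -1.08 ± 0.49) was lost when any of 8 libraries was left out, with adjusted p up to 0.270 without wild-type section library 1, and in the fit with no filter (adjusted p = 0.303).

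The tether and other coiled-coil Cfap proteins lie at the base of the arms or along the tail. All 7 genes placed there fell in the fit with no filter, against 17.6% of all genes. Cfap97 had 293, 381 and 226 CPM in wild-type and 14.7, 30.6 and 28.0 CPM in knockout sections and fell by 4.25 ± 0.53 (SE, adjusted p = 7.58e-15). Cfap97d1, a relative of Cfap97, had 166, 333 and 263 CPM in wild-type and 2.10, 2.55 and 6.22 CPM in knockout sections and fell by 6.62 ± 0.65 (SE, adjusted p = 8.06e-23). Whether Cfap97 and Cfap97d1 belong to a tether complex is not known from the sources used here, and they were placed there for want of another group.

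Of the 4 remaining Cfap genes, 2 fell and 2 were not called in the fit with no filter, where 17.6% of all genes fell. Cfap299 (chromosome 5, 98329304 to 98802047, plus strand) had 821, 1087 and 1014 CPM in wild-type and 10.5, 7.65 and 12.4 CPM in knockout sections and fell by 7.12 ± 0.63 (SE, adjusted p = 4.22e-27). Cfap36, which binds the small GTPase Arl3, had 199, 291 and 178 CPM in wild-type and 37.8, 48.4 and 18.6 CPM in knockout sections and fell by 3.27 ± 0.49 (SE, adjusted p = 1.05e-10). With 43 knockout counts Cfap36 was the most counted of the 69 genes in knockout sections, ahead of Cfap20 with 41 and Dnah9 with 39. Cfap410, which takes part in making primary cilia as well as motile ones, had 5.30, 1.91 and 12.1 CPM in wild-type and 6.31, 7.65 and 12.4 CPM in knockout sections. Cfap410 overlapped between the groups and was not called (log2 0.37 ± 0.83, adjusted p = 0.775, no filter).

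**Figure D4:**
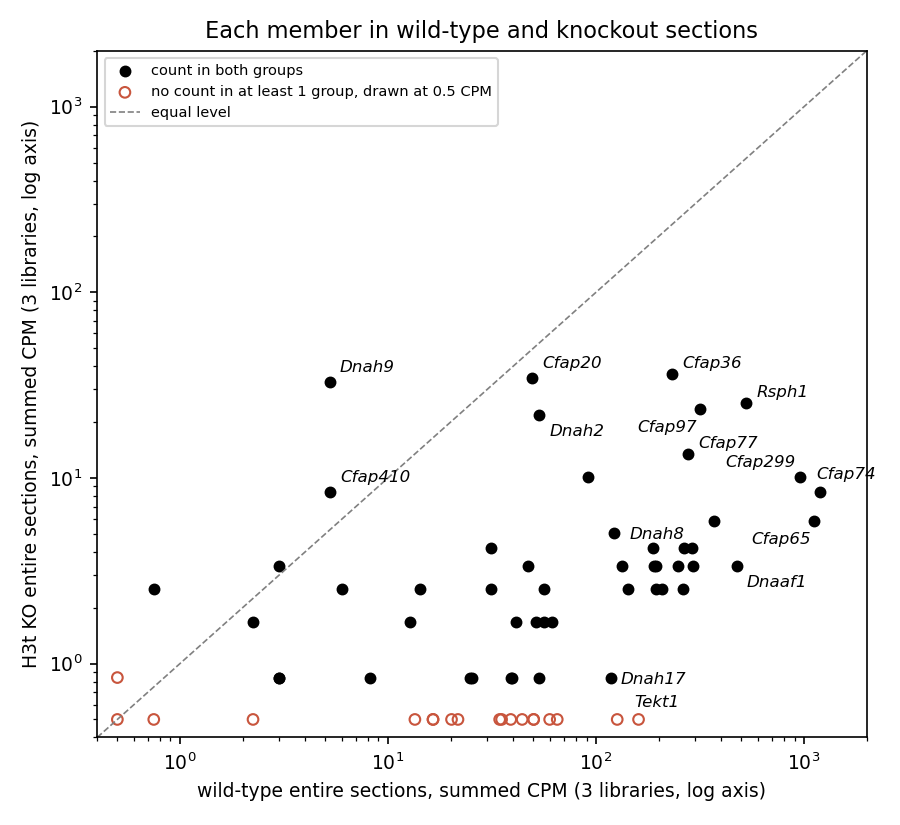
Summed CPM of each gene over the 3 wild-type section libraries (x axis) and the 3 knockout section libraries (y axis), both logarithmic; open circles have no count in at least 1 group and are drawn at 0.5 CPM, and the dashed line marks equal levels. Most genes lie far below the line, Dnah9 lies above it, and Cfap20, Dnah2 and Cfap36 lie closer to it than other genes with a wild-type level over 40 CPM.

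In Leydig-targeted libraries the same loss was seen at a lower depth. Of the 30 tested genes 24 fell in knockouts, where 20.9% of all tested genes fell and 7.55% rose. Since all 30 were called lower in sections, the 24 were bound to be called in both comparisons. With no filter 11 of 68 genes fell and none rose, against 1.66% and 1.47% of all genes, and 35 had an unadjusted p under 0.05. In the filtered fit without wild-type Leydig-targeted library 1, the deepest of its group, 10 of the tested genes fell. Of the 69 genes, 49 had no count in the knockout Leydig-targeted libraries, among them 17 of the 24. Groups did not overlap for 12 of 63 genes with a count, all lower in knockouts, against 4.17% lower and 6.33% higher of all genes with a count. The germ cell marker lists moved with them, from 1.13% to 2.57% of counts in elongating spermatid markers in wild type to at most 0.0113% in knockouts, and their part in the result was not tested.

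Cfap74 had 565, 372 and 168 CPM in wild-type and 18.9, 0 and 0 CPM in knockout Leydig-targeted libraries, a ratio of 51.7 (8.78 to 2089, exact 95% counting interval; adjusted p = 1.35e-05) on 1 knockout count. Cfap97 had 583, 372 and 168 CPM and 18.9, 25.2 and 0 CPM, a ratio of 26.5 (6.89 to 226; adjusted p = 1.90e-05). For both, every wild-type library lay above every knockout library. Cfap299 had 128, 670 and 168 CPM in wild type and no count in knockouts and was at least 10.7-fold lower (adjusted p = 3.40e-05). Of its 26 wild-type counts 18 were in library 2, without which the Cfap299 limit was 4.73-fold (adjusted p = 0.00986). Dnah8 had 7, 7 and 8 counts in wild type and none in knockouts, at least 9.02-fold lower (adjusted p = 4.27e-05). In CPM the Dnah8 values were 128, 261 and 1345, so the shallow library 3 stood far above the others on few counts.

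Several calls rested on the deepest wild-type Leydig-targeted library. Cfap45 had 18, 1 and 0 counts in wild type and none in knockouts, and Dnaaf1 had 547, 112 and 0 CPM in wild type and 18.9, 0 and 0 CPM in knockouts. Without library 1 the calls of Cfap45 (adjusted p = 0.308), Dnaaf1 (adjusted p = 0.199) and Dnah17 (adjusted p = 0.308) were lost. Cfap65, at 547, 149 and 0 CPM in wild type and no count in knockouts, was at least 13.9-fold lower and was still called without it (adjusted p = 0.0436), with a limit of 4.39-fold on 4 wild-type counts. Without knockout Leydig-targeted library 1, the deepest of the knockouts, the limits were 5.43-fold for Cfap299, 4.59-fold for Dnah8 and 7.10-fold for Cfap65. The 6 tested genes not called were Cfap20, Cfap61, Cfap77, Dnah2, Dnah7b and Tekt5. All but Cfap20 had 6 or fewer counts in the 3 wild-type libraries, and Cfap20 had 146, 261 and 504 CPM in wild type and 75.5, 126 and 0 CPM in knockouts (log2 -1.56 ± 0.75, adjusted p = 0.109). No difference between the genotype effect in Leydig-targeted libraries and that in sections was called for any of the 30 genes by edgeR, where 0.135% and 0.193% of all tested genes were called on the lower and higher side. The lowest adjusted p for the interaction was 0.494, none had an unadjusted p under 0.05, and DESeq2 called none. With no filter 5 of 68 genes had an unadjusted p under 0.05 by edgeR and none was called. Of the 30 genes 20 had no count in the knockout Leydig-targeted libraries. The test could therefore hardly call a difference, and its result does not show equal effects.

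Within wild type the genes took a smaller share in Leydig-targeted libraries than in sections, 0.568% ± 0.112 (SD, n = 3) against 0.987% ± 0.0326 (SD, n = 3), and the libraries did not overlap. Germ cell markers moved with this share, with means of 0.744% and 0.563% for spermatocyte, 1.16% and 0.697% for round spermatid and 3.65% and 1.76% for elongating spermatid markers in sections and Leydig-targeted libraries. Leydig markers went from 0.537% to 2.27%, and the part of either in the result was not tested. With no filter 19 of 68 genes were lower, against 5.47% of all genes. Of the 30 tested genes 11 were called lower, where 12.4% of all tested genes were lower and 3.22% higher. Since these 30 passed the filter mostly through wild-type sections, the direction is favoured by the choice. The 11 became 7 by DESeq2, 6 with library size alone and 4 in a fit of wild type alone. All 4 tested radial spoke genes were among the 11 (Rsph1, Cfap206, Cfap61 and Rsph6a), but none of the 4 was called without wild-type Leydig-targeted library 1 (adjusted p from 0.0601 to 0.283) and Cfap61 alone without library 3. Rsph1 and Rsph6a were also lost without wild-type section library 1 or knockout Leydig-targeted library 3, Rsph1 without wild-type section library 3 and Rsph6a without library 2. Cfap299 had 821, 1087 and 1014 CPM in sections and 128, 670 and 168 CPM in Leydig-targeted libraries, with no overlap and a log2 difference of -2.26 ± 0.55 (SE, adjusted p = 0.00136). Cfap97 had 293, 381 and 226 CPM in sections and 583, 372 and 168 CPM in Leydig-targeted libraries, which overlap (log2 -0.06 ± 0.50, adjusted p = 0.949). Without wild-type Leydig-targeted library 1 the Cfap299 call was lost (adjusted p = 0.136), and the count of lower genes ranged from 4 to 11 when single libraries were left out.

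Summed CPM within wild type was lower in Leydig-targeted libraries for 40 of the 68 genes and higher for 28. With counts below 3 in a group raised to 3, the median log2 ratio was 0.07 over the 68 genes and 2.52 over all 23649 genes with a count. The floor of 3 is 34.2 CPM in the Leydig-targeted group and 2.24 CPM in sections, so genes with few counts score high by depth alone. Over genes with 100 or more section counts, a choice that favours the lower side, the medians were -0.84 for 26 of the genes and -0.43 for all 2863. Rsph3b and Cfap20, on the higher side, were named after their values were seen. Rsph3b had 0 counts in wild-type sections and 3, 1 and 1 counts in Leydig-targeted libraries, and was called higher in the fit with no filter (adjusted p = 0.00764), where 0.603% of all genes were. Its group at 0 allows up to 2.24 CPM, and the call was lost without wild-type Leydig-targeted library 1 and with the replicate block. Cfap20 had 54.7, 47.8 and 40.4 CPM in sections and 146, 261 and 504 CPM in Leydig-targeted libraries. These did not overlap, and the log2 difference of 1.54 ± 0.60 was not called by edgeR (adjusted p = 0.0593) and was called by DESeq2 (adjusted p = 0.0111). Within knockouts none of the 30 genes was called between regions by edgeR (3.53% of all tested genes lower and 1.91% higher), 1 had an unadjusted p under 0.05, and DESeq2 called Dnah2 alone.

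Genes of the axoneme and its assembly outside the name rule were taken from lists of 148 genes in the table. With no filter 111 of 145 fell in knockout sections and 5 rose, against the 17.6% and 9.16% of all genes. Of the 75 that passed the filter, largely through wild-type sections, 69 fell, 5 rose and 1, Ift20, was not called, against 39.1% lower and 22.6% higher of all tested genes. Over the 145 of them with a count, the median log2 ratio of summed CPM, counts below 3 raised to 3, was -2.71, against 0.17 over all genes with a count. In Leydig-targeted libraries 17 of 145 fell and 2 rose with no filter, against 1.66% and 1.47% of all genes. Of the 75 tested there, 48 fell and 2 rose, Tuba1c and Ift20, against 20.9% and 7.55% of all tested genes. Without wild-type Leydig-targeted library 1, 19 fell and none rose, and without knockout Leydig-targeted library 1 or library 2, 31 fell.

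Most lists of axoneme structure and arm assembly fell in every tested gene, but that of outer arm docking and light or intermediate chains did not. In that list 8 of 9 tested genes fell and Dynlrb1 rose. Tested genes passed the filter largely through wild-type sections, so the lower direction is favoured by the choice. All 8 central pair and spoke genes, 13 doublet inner genes, 6 regulatory complex genes and 5 assembly factors tested fell in sections. Of all genes tested there 39.1% fell. Ropn1l, a spoke protein of the sperm tail, had 397, 645 and 481 CPM in wild-type and 8.41, 7.65 and 15.5 CPM in knockout sections and fell by 6.18 ± 0.61 (SE, adjusted p = 1.13e-22). Enkur, a doublet inner protein, had 284, 306 and 190 CPM in wild-type and 2.10, 7.65 and 3.11 CPM in knockout sections and fell by 6.37 ± 0.64 (SE, adjusted p = 4.00e-22). Dydc1 had 376, 304 and 368 CPM against 2.10, 0 and 15.5 CPM, and Ccdc96 136, 159 and 162 CPM against 0, 5.10 and 6.22 CPM. Zmynd10, an assembly factor of the cytoplasm, had 178, 168 and 198 CPM in wild-type sections and 1 count in knockouts, a ratio of 212 (37.7 to 8401, exact 95% counting interval). Pih1d1, which also serves other complexes, had 147, 235 and 117 CPM in wild-type and 39.9, 5.10 and 43.5 CPM in knockout sections and fell by 3.12 ± 0.49 (SE, adjusted p = 6.92e-10). Efcab2 of the regulatory complex kept 23.1, 35.7 and 31.1 CPM in knockouts against 166, 195 and 141 CPM and fell by 3.09 ± 0.49 (SE, adjusted p = 9.65e-10).

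Other list genes also serve structures outside the axoneme, and these went in both directions. The light chains Dynll1 and Dynll2, which also serve cytoplasmic dynein and other proteins, had 336, 222 and 255 CPM and 450, 431 and 441 CPM in knockout sections. In wild-type sections they had 545, 806 and 505 CPM and 455, 840 and 715 CPM, and they fell by 1.82 ± 0.46 and 1.24 ± 0.45 on the log2 scale (SE, adjusted p = 2.11e-04 and 0.0116). Dynlrb1, a light chain of cytoplasmic dynein, had 79.4, 45.9 and 48.5 CPM in wild-type and 275, 280 and 298 CPM in knockout sections and rose by 1.70 ± 0.46 (SE, adjusted p = 6.42e-04). Ift20, which also works at the Golgi, had 237, 218 and 267 CPM in wild-type and 355, 535 and 351 CPM in knockout sections, which do not overlap in CPM, with a log2 difference of 0.19 ± 0.44 after TMM scaling (adjusted p = 0.729). The other 14 tested intraflagellar transport genes fell, among them Kifap3, a kinesin subunit (228, 344 and 255 CPM against 23.1, 30.6 and 31.1 CPM, log2 -3.90 ± 0.51).

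Tubulins, the material of the doublets, split in 2 directions. Tuba3a and Tuba3b, the testis alpha tubulins, which are near-identical copies with uncertain shares of reads, fell by 3.15 ± 0.48 and 4.67 ± 0.53 (SE, adjusted p = 3.11e-10 and 1.39e-17). Tuba3b had 598, 484 and 533 CPM in wild-type and 31.5, 30.6 and 31.1 CPM in knockout sections, and Tuba3a 245, 207 and 137 CPM and 33.6, 43.3 and 21.8 CPM. Tuba1a, Tuba1b, Tuba1c and Tubb5, which most cells use, rose by 1.13, 1.27, 1.42 and 1.15 on the log2 scale. Tuba1c had 72.4, 38.3 and 56.6 CPM in wild-type and 231, 207 and 224 CPM in knockout sections and was called under all 19 settings run, as was Dynlrb1. DESeq2 did not call Tuba1a (adjusted p = 0.0950), Tuba1b (adjusted p = 0.0809) or Tubb5 (adjusted p = 0.159), while all 5 stayed higher in direction under each scaling run. The Tuba1a call was also lost without knockout section library 1 (adjusted p = 0.157) or wild-type section library 2 (0.0829) or 3 (0.123), and the Tuba1b call without wild-type section library 3 (log2 0.93, adjusted p = 0.140). The Tubb5 call was lost without knockout section library 1 (adjusted p = 0.111) or 3 (0.0707) or wild-type section library 2 (0.0838) or 3 (0.0632). Without wild-type section library 1 the log2 fold changes were 2.38 for Tuba1a, 2.61 for Tuba1b and 1.85 for Tubb5. The Leydig, Sertoli and macrophage marker shares given beside Dnah9 rose in the same libraries, and their part was not tested.

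**Figure D5:**
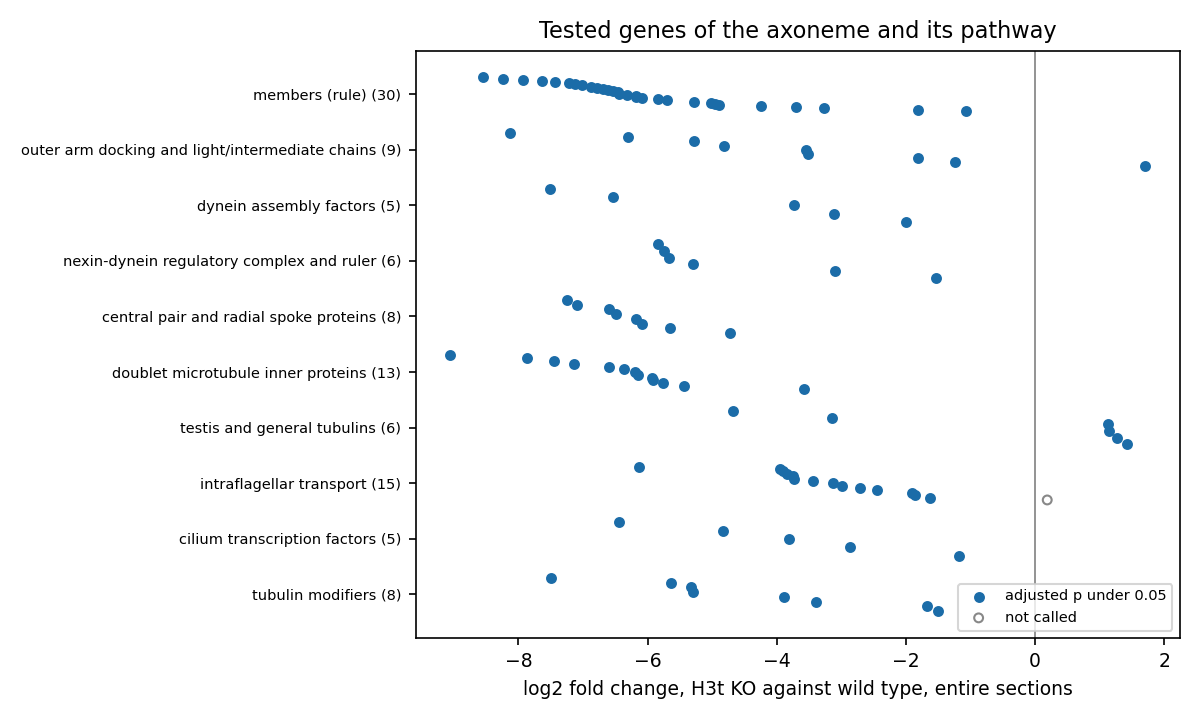
Log2 fold change of knockout against wild-type sections for each tested gene of the 69 (top row, 30 genes) and of 9 lists of related genes, with the number tested in parentheses; filled points passed an adjusted p under 0.05 and the vertical line marks no change. The points lie left of the line except 4 tubulins, Dynlrb1 and Ift20.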

How the data were processed

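The authors deposited raw counts per gene as whole numbers, 1 column per library and not normalized. Tools named in the submitters' processing notes are UMI-tools (for molecular barcodes), Trim Galore, HISAT2 and featureCounts, and the genome is GRCm38; no source used here gives versions or the strand setting. Reads come from 3′ ends, so counts do not scale with gene length. Positions are from GENCODE vM21.

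All 12 libraries were fitted with edgeR 4.0.16 (R 4.3.3), a robust quasi-likelihood fit with 1 coefficient per group, TMM scaling and the package's expression filter at a minimum count of 10 (about 66.1 CPM in at least 3 libraries; 5182 genes tested). Adjusted p-values are Benjamini-Hochberg over all genes tested, and calls are at under 0.05. A second fit had no filter (26389 genes). DESeq2 1.42.0, other scalings, a fit of the groups compared only, a replicate block and leaving out each library were alternatives. The fit was also run on simulated data in which few genes changed, as many up as down. That run does not test the scaling of the section comparison, where 39.1% of tested genes fell and 22.6% rose. The median log2 fold change of all tested genes, knockout against wild type in sections, was -0.35 with TMM and 0.22 with library size alone. Intervals are exact 95% intervals and, like the floor of 3 counts over a group, cover counting error only.

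Same-numbered section libraries of both genotypes deviated together from their group means (correlations across genes 0.243, 0.132 and 0.194). The numbers may therefore pair them. Leydig-targeted libraries did not deviate together (-0.0036, 0.0082 and -0.0063). Only the replicate block used this pairing, and all other values given here come from unpaired fits. With the block (edgeR, sections) the SE of Cfap206 was 0.49 instead of 0.63, and Cfap20 had adjusted p = 0.0181 instead of 0.0443.

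Members and lists were chosen with earlier results of these data known. Genes were named by rule: per role the 2 tested genes highest in wild-type sections, any tested gene not called lower in knockout sections or called in the interaction, the 3 untested genes with most knockout section counts, and per list the 2 tested genes highest in wild-type sections; other named genes were chosen after their values were seen.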

Additional observations from a re-analysis of the deposited data

How the results depend on the processing

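In knockout against wild-type sections, 29 to 30 of 30 tested genes fell when single libraries were left out, and 30 fell with the replicate block; with no filter 56 of 68 fell (53 to 56 with single libraries left out) and 1 rose (0 to 1), and in a fit of the sections alone 1 rose. Values with other scalings, DESeq2 or the block kept their call and direction for every tested gene but Cfap20, which was not called with library size alone (-0.49). In Leydig-targeted libraries 24 genes fell, 11 with no filter, 21 with the replicate block, and 10 to 25 with single libraries left out; a fit of those groups alone kept none of the 69 genes. Dnah2 there, not called, turned lower without wild-type section library 1 (-0.0120), wild-type Leydig-targeted library 3 (-0.254), knockout Leydig-targeted library 1 (-0.144) or 3 (-0.0352), with a range of -0.254 to 0.443.

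Within wild type, 11 genes were lower in Leydig-targeted libraries, and 6 with library size alone, 19 with no filter, 4 in a fit of wild type alone, 7 by DESeq2, 16 with the replicate block and 4 to 11 with single libraries left out; 1 was higher with DESeq2 size factors, library size alone, no filter, wild type alone or DESeq2 (0 to 1 with single libraries left out). Within knockouts 1 was higher in a fit of knockouts alone and by DESeq2. Of the other pathway genes 111 fell with no filter and 66 to 69 with single libraries left out, and 2 rose by DESeq2 (2 to 5 with single libraries left out). With nuclear protein-coding counts as denominator the wild-type section share was 1.12%. The interaction was not refitted in single-comparison fits. The cause of these changes was not tested, apart from the filter, which changes the number of genes tested. Depth limits the Leydig-targeted libraries: 3 counts over the wild-type group are 34.2 CPM.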

Other observations

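Regulators of the axoneme programme were also lower in knockout sections. All 5 cilium transcription factors tested fell, where 39.1% of all tested genes fell. Of 13 list genes these 5 passed the filter, largely through wild-type sections. Rfx2, an X-box binding factor of spermatids, had 367, 475 and 436 CPM in wild-type and 2.10, 5.10 and 15.5 CPM in knockout sections, and fell by 6.44 ± 0.62 on the log2 scale (SE, edgeR adjusted p = 1.28e-23). Rfx1, a relative made in many tissues, had 134, 147 and 166 CPM against 27.3, 33.1 and 31.1 CPM and fell by 2.86 ± 0.47 (SE, edgeR adjusted p = 4.08e-09). The wild-type and knockout libraries did not overlap for either gene. The other 3, Crem, E2f4 and Sox30, fell as well.

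Tubulin-modifying genes behaved likewise, with 8 of 8 tested lower in knockout sections, where 39.1% of all tested genes fell. Of 16 list genes these 8 passed the filter, largely through wild-type sections. Ttll6, a polyglutamylase, had 194, 170 and 170 CPM in wild-type sections and 1 count in knockout sections, a ratio of 215 (38.1 to 8507, exact 95% counting interval). Tpgs2, a polyglutamylase complex subunit, had 319, 555 and 315 CPM against 56.8, 63.7 and 55.9 CPM and fell by 3.39 ± 0.49 (SE, edgeR adjusted p = 2.26e-11). Tex33, of the doublet inner list, had 173, 430 and 246 CPM in wild-type sections and 3 counts in knockout sections, a ratio of 114 (38.7 to 555).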
